A study of Mus musculus with 10 samples.

Results

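The genes described here are 44 genes of mitosis, the step in which a cell parts its copied chromosomes and divides. They were taken as a named list, and 40 of the 44 had a probe on the arrays, among 15097 genes with a symbol and 20243 features in all. Ccnb1, Espl1, Ncaph and Smc4 had no probe among those analysed. Anln, Plk1 and Smc2 had 2 probes each, which were averaged. By role, the 40 genes were 3 of the cyclin and Cdk1 engine, 11 of the spindle and centrosome, 7 of the kinetochore and its checkpoint, 4 of the chromosomal passenger complex, 4 of anaphase and mitotic exit, 5 of condensin and chromosome structure, and 6 of cytokinesis.

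Every RNA came from FDB1, a mouse myeloid progenitor line that depends on IL-3. All cells carried a constitutively active form of the common beta chain, the subunit that the receptors for GM-CSF, IL-3 and IL-5 share. The first line carried FI-Delta, and the second carried FI-Delta Y577F, in which a tyrosine is replaced by phenylalanine (called Y577F here). Whether each line is a clone or a pool is not given in the sources used here. Cells in growth medium with serum and mouse IL-3 gave the 0 h RNA, and cells washed and cultured for 72 h without the factor gave the 72 h RNA. These are 4 RNA groups with 2 cultures each by the design text. No RNA from cells kept in IL-3 for 72 h was analysed here, so loss of the factor, the washing and the days in culture cannot be told apart. FDB1 cells without either receptor mutant were not analysed here either, so every difference is between mutants or between times.

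RNA was labelled with Cy5 and Cy3 and compared in pairs on 10 two-colour oligonucleotide arrays: 2 for 72 h over 0 h in Y577F cells, 3 for the same step in FI-Delta cells, 3 for Y577F over FI-Delta at 0 h and 2 at 72 h. Values are log2 ratios, turned by the titles so that a negative number means lower at 72 h or lower in Y577F cells. The base and the channel order are not stated in the sources used here. Turning all signs would turn every direction given here. Ratios hold no levels, so genes cannot be ranked by abundance, and the identity of the line could not be checked from its markers. FI-Delta time arrays 1 and 2 carried the same RNA with the dyes exchanged. Their turned ratios correlated with r = 0.24 over all 20243 features and r = -0.25 over the 40 mitosis genes. FI-Delta arrays 1 and 3, of the same dye orientation but different cultures, had r of 0.54 and 0.46, and arrays 2 and 3, of opposite orientation, 0.35 and -0.04. At 0 h the arrays of opposite dye had r of 0.09 and -0.04 over all features, and 0.00 and -0.46 over the mitosis genes, while arrays 2 and 3, of the same orientation, had 0.36 and 0.32. Both Y577F time arrays (r = 0.63, and 0.81 over the mitosis genes) and both 72 h arrays (r = 0.52 and 0.60) were of opposite orientation. In FI-Delta cells and at 0 h, then, the mitosis genes correlated above 0.3 in pairs of the same dye orientation and at or below 0 in pairs of opposite orientation. These are descriptions of arrays that share a platform, and genes are not independent replicates. A dye term was called in 146 of the 20243 features and in 0 of the 40 genes. With so small a share over all features, 0 of 40 says nothing particular about these genes. Their fitted dye terms, none called, ran from -0.18 for Mad2l1 to 0.14 for Cenpa and Aurkb.

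Entry into mitosis is driven by Cdk1 bound to cyclin B, after cyclin A has prepared it. Kinesins, Aurora and Polo kinases then build the spindle, condensin compacts the chromosomes, and the checkpoint at kinetochores holds back the anaphase-promoting complex until every chromosome is attached. Cdc20 and Ube2c then work with that complex to destroy securin and cyclins, and a contractile ring, placed through the midzone of the spindle, splits the cell. Most of these genes are transcribed late in the cell cycle, through promoters in which CCAAT boxes lie beside a cell cycle genes homology region. Their RNA is therefore widely read as a sign of dividing cells, and in blood progenitors it declines as cells leave the cycle to mature. In RNA from whole cultures, fewer dividing cells and less of these RNAs in each cell cannot be told apart.

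Promoter letters were read in RefSeq windows of 300 bases (GRCm38.p6, 250 before the start of the gene and 50 after it) for 35 of the 40 genes. The table used here gave no window for Aurkb, Ccna2, Incenp, Kif20a and Tpx2. CCAAT, or ATTGG when it lies on the other strand, was found for 29 of the 35 genes, against 42.2% of 11755 genes on the array with a window and 37.4% of all 32851 windows. TTTGAA (other strand TTCAAA), letters of the homology region, was found for 28 of 35, against 16.0% of the array genes and 17.9% of windows. TTTAAA was found for 7 of 35 (12.4% of the array genes, 13.2% of windows). Either of the last 2 motifs together with CCAAT was found for 27 of 35 genes and in 11.8% of the array genes. The E2F letters TTTCCCGC and TTTGGCGC were each found for 1 gene, against 1.9% and 0.9% of the array genes (1.1% and 0.5% of windows). Matches of different letters overlapped in 1 of the 37 member windows, that of Cdca8. A match is a description of the letters and not a measured site.

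The promoters below are shown because these genes moved together: they belong to the genes with a window that had the largest declines in Y577F cells. Each is written 5′ to 3′ on the strand of the gene, from 250 bases before the start to 30 after it. Capitals mark the CCAAT letters, the TTTGAA letters and the reverse complements of both. Ube2c lies at chr2:164769679-164769958 on the plus strand, Cdca8 at chr4:124936888-124937167 on the minus strand, Bub1 at chr2:127831830-127832109 on the minus strand, Top2a at chr11:99024160-99024439 on the minus strand and Smc2 at chr4:52438971-52439250 on the plus strand.
Ube2c: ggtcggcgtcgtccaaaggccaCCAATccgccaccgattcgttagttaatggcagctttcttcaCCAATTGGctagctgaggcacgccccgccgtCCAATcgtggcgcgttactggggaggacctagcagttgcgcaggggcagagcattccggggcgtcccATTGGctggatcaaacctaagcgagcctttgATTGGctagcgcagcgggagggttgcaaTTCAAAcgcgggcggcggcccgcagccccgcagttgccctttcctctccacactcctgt
Cdca8: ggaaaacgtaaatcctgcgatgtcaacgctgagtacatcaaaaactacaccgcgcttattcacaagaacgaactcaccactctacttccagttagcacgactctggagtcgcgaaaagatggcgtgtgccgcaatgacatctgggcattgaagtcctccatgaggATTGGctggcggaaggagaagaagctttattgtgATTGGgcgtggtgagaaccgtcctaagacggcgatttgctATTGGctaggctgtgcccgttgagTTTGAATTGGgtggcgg
Bub1: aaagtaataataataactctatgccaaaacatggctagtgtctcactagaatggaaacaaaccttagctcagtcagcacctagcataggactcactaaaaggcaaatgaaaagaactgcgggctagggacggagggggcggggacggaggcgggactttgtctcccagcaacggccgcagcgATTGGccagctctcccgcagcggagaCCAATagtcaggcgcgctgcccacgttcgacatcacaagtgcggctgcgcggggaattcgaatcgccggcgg
Top2a: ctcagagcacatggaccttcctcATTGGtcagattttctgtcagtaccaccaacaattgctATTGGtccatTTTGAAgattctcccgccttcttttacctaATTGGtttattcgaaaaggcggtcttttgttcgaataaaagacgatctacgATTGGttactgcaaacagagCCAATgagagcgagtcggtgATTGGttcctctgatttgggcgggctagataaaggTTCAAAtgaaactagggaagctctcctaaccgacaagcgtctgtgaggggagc
Smc2: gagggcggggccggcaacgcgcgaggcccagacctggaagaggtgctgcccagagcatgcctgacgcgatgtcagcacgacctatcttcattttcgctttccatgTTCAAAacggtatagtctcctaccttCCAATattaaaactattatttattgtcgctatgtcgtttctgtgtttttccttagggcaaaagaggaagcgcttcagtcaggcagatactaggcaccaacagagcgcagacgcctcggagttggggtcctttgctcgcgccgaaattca

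The following promoters belong to genes whose change in the same comparison was closest to 0. Cdc20 lies at chr4:118437314-118437593 on the minus strand, Spag5 at chr11:78301341-78301620 on the plus strand and Kif22 at chr7:127042391-127042670 on the minus strand.
Cdc20: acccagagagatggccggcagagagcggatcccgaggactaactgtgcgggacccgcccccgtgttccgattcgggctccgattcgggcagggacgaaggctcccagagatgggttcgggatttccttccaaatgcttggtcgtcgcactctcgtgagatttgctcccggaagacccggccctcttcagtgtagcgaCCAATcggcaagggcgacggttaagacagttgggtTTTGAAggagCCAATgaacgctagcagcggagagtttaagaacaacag
Spag5: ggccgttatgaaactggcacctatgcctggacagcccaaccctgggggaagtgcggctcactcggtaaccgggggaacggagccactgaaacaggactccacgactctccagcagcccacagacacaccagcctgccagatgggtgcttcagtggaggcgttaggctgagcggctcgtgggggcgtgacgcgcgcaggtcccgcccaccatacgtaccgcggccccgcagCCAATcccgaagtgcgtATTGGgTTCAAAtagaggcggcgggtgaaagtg
Kif22: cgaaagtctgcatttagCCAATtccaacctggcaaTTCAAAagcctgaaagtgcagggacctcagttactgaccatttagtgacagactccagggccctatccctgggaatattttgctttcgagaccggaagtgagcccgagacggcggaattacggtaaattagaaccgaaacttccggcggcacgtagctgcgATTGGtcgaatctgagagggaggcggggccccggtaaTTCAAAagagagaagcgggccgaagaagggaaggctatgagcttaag

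The shown Ube2c promoter holds CCAAT 6 times and TTTGAA 1 time, and that of Top2a holds them 6 and 2 times. Bub1 holds CCAAT 2 times and no TTTGAA within the bases shown. The genes closest to 0 carried the same letters: Cdc20 and Spag5 hold CCAAT 2 times and TTTGAA 1 time, and Kif22 holds each 2 times. Among genes with a window, CCAAT was found for 21 of the 27 that fell in Y577F cells and for 8 of the 8 that did not pass, and TTTGAA for 20 of 27 and 8 of 8.

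After 72 h without IL-3, mitosis genes were lower in Y577F cells and showed no called change in FI-Delta cells. In Y577F cells 31 of 40 fell, 0 rose and 9 did not pass the test, where 8.75% of all features fell and 9.28% rose. Their median was -0.44, a 1.36-fold decline, beside 0.01 for all features, and the values ran from -1.01 to 0.15. On the arrays that compared the times directly, 37 of 40 were below 0 on both, against 29.7% of all features. Tpx2 was the 1 gene that was at least 2-fold lower. A gene was called at an adjusted p under 0.05 in limma's moderated test with the Benjamini-Hochberg adjustment over all 20243 features, and errors given with ± are standard errors of that model. The 9 hybridisations share RNA extracts, which the test treats as independent. Without Y577F time array 1 the count was 16 of 40, with 1949 features called over the whole table in place of 3649, and the median was -0.42.

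**Figure D1:**
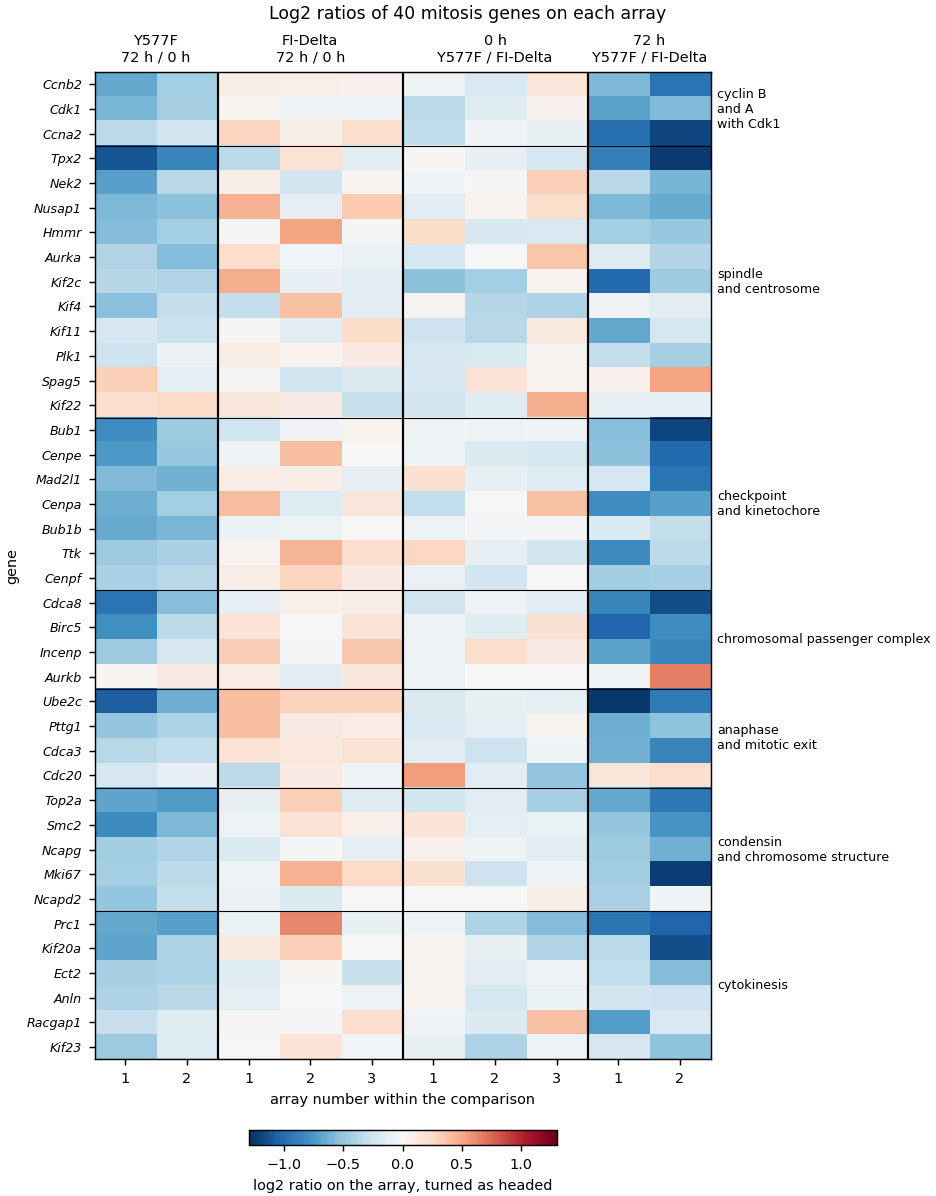
Log2 ratio of each of 40 mitosis genes (rows, grouped by role) on each of 10 arrays (columns, grouped by the RNAs compared), in colour from blue (lower) to red (higher). Blue fills the columns of Y577F cells over time and of Y577F against FI-Delta at 72 h, with medians from -0.58 to -0.39, and the columns of FI-Delta cells over time and of the lines at 0 h are pale and mixed, with medians from -0.14 to 0.07.

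All 3 measured genes of the cyclin and Cdk1 engine fell in Y577F cells, with a median of -0.52. Ccnb2, the B-type cyclin measured here, read -0.67 and -0.44 on the Y577F time arrays. On the FI-Delta time arrays it read 0.09, 0.07 and 0.06, so the arrays of the lines did not overlap. Its fitted change was -0.58 ± 0.10 in Y577F cells (adjusted p = 0.0021) and 0.11 ± 0.11 in FI-Delta cells. Overlap of arrays is only described, here and below, for genes chosen by their fitted change. The share of all features without overlap was not counted. Cdk1, the kinase itself, changed by -0.52 ± 0.08 in Y577F cells (adjusted p = 0.00097) and was at -0.07 ± 0.09 in FI-Delta cells. Ccna2, cyclin A of S phase and early mitosis, read -0.34 and -0.25 against 0.28, 0.08 and 0.23. Its fitted change was -0.41 ± 0.10 in Y577F cells (adjusted p = 0.016) and 0.31 ± 0.11 in FI-Delta cells, which did not pass (adjusted p = 0.12). The direct comparison of the lines at 72 h gave Ccna2 at -0.97 ± 0.10 (1.96-fold lower in Y577F cells), from -0.98 and -1.19 on its arrays.

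The spindle and centrosome genes were mixed. Of 11, 6 fell in Y577F cells and 5 did not pass, with a median of -0.39. Tpx2, which activates Aurora A and nucleates spindle microtubules, read -1.12 and -0.85 on the Y577F time arrays and -0.34, 0.18 and -0.14 on the FI-Delta time arrays. Both Y577F arrays lay below all those of FI-Delta. The fitted change of Tpx2 in Y577F cells was -1.01 ± 0.10 (2.01-fold lower, adjusted p = 2.2e-05), at percentile 0.445 of all features, and in FI-Delta cells it was -0.06 ± 0.10. Its partner Aurka, the Aurora A kinase of the poles, changed by -0.43 ± 0.11 (adjusted p = 0.021). Nek2, a centrosome kinase, changed by -0.55 ± 0.10, and Nusap1, which bundles spindle microtubules, by -0.52 ± 0.09. Hmmr, a spindle pole protein, changed by -0.44 ± 0.10. Kif2c, the kinesin that takes microtubules apart at centromeres, was the weakest call at -0.39 ± 0.12 (adjusted p = 0.047).

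The other 5 spindle genes did not pass in Y577F cells. Kif11, the motor that pushes the poles apart, read -0.21 and -0.28, and its fitted value was -0.24 ± 0.11 (adjusted p = 0.18). Kif4, a chromosome-bound kinesin, read -0.54 and -0.31 on the Y577F arrays but also -0.31 and -0.15 on FI-Delta arrays 1 and 3, with 0.38 on array 2. Its fitted values were -0.28 ± 0.12 and -0.17 ± 0.12. Kif22, the chromokinesin that pushes chromosomes toward the equator, read 0.23 and 0.25 (fitted 0.11 ± 0.15, adjusted p = 0.69), so it lay on the other side of 0 from most of the group on both arrays. Spag5, the spindle protein astrin, read 0.31 and -0.13 and so had no common sign (fitted 0.09 ± 0.12). Plk1, the Polo kinase, read -0.27 and -0.08 as the mean of 2 probes that disagreed: the first changed by -0.51 (adjusted p = 0.0033) and the second was at 0.17 (adjusted p = 0.29). Its averaged value of -0.17 ± 0.08 (adjusted p = 0.22) therefore stands for neither probe.

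All 7 kinetochore and checkpoint genes fell in Y577F cells, with a median of -0.57 and a range from -0.70 to -0.33. Bub1, the kinase that recruits checkpoint proteins to kinetochores, read -0.81 and -0.46 on the Y577F arrays and -0.26, -0.05 and 0.05 on the FI-Delta arrays. Its fitted change was -0.70 ± 0.12 in Y577F cells (1.62-fold lower, adjusted p = 0.0020) and 0.02 ± 0.13 in FI-Delta cells. Mad2l1, the Mad2 protein that locks Cdc20 until chromosomes are attached, read -0.57 and -0.62 against 0.10, 0.09 and -0.11, and changed by -0.58 ± 0.10 (adjusted p = 0.0014). Cenpe, the kinesin that carries chromosomes to the plate, read -0.75 and -0.49 against -0.05, 0.39 and 0.01, and changed by -0.59 ± 0.10 (adjusted p = 0.0017). The arrays of the lines did not overlap for any of these genes, which were chosen by the size of their decline. Cenpa, the histone that marks centromeres, read -0.63 and -0.44 against 0.40, -0.17 and 0.15, again without overlap, and changed by -0.57 ± 0.10 (adjusted p = 0.0019). The other checkpoint kinases were Bub1b at -0.52 ± 0.09 and Ttk, which starts the checkpoint, at -0.41 ± 0.12. Cenpf, a large kinetochore protein, changed by -0.33 ± 0.09, the smallest decline of the group. In FI-Delta cells the 7 lay between -0.15 and 0.20, and none was called.

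In the chromosomal passenger complex 3 of 4 genes fell in Y577F cells, with a median of -0.53, and the kinase did not pass. The complex holds Aurora B together with Incenp, survivin (Birc5) and borealin (Cdca8), and it corrects wrong attachments and later sits at the midzone. Cdca8 read -0.96 and -0.55 on the Y577F arrays and -0.11, 0.07 and 0.08 on the FI-Delta arrays, and fell by 0.78 on the log2 scale (SE 0.10, 1.71-fold, adjusted p = 0.00021). Birc5 read -0.80 and -0.34 against 0.18, -0.01 and 0.17, and its change was -0.64 ± 0.10 (1.55-fold lower, adjusted p = 0.00082). Incenp, the scaffold, changed by -0.42 ± 0.10 in Y577F cells (adjusted p = 0.0093) and was at 0.29 ± 0.10 in FI-Delta cells (adjusted p = 0.11). Aurkb itself read 0.03 and 0.11 in Y577F cells and 0.10, -0.15 and 0.15 in FI-Delta cells, so its arrays overlapped. The fitted Aurkb value of 0.15 ± 0.11 (adjusted p = 0.41), with a 95% interval from -0.08 to 0.38, lay above the fitted declines of its partners. The difference between Aurkb and its partners was not tested.

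Among genes of anaphase and mitotic exit, 3 of 4 fell in Y577F cells, with a median of -0.39. Ube2c, the ubiquitin-conjugating enzyme that works with the anaphase-promoting complex, read -1.07 and -0.63 on the Y577F arrays and 0.39, 0.30 and 0.30 on the FI-Delta arrays. Every array of FI-Delta was thus above 0 and both of Y577F below it. Its fitted change was -0.79 ± 0.09 in Y577F cells (1.73-fold lower, adjusted p = 8.2e-05) and 0.21 ± 0.09 in FI-Delta cells (adjusted p = 0.24). Pttg1, the securin that restrains separase, changed by -0.41 ± 0.08, and Cdca3, a trigger of mitotic entry, by -0.36 ± 0.08. Cdc20, the activator of the complex and the target of the checkpoint, read -0.22 and -0.11 in Y577F cells and -0.34, 0.11 and -0.06 in FI-Delta cells, so its Y577F values lay within the range of the FI-Delta values. Its fitted value was -0.07 ± 0.15 (adjusted p = 0.81), with a 95% interval from -0.40 to 0.25.

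All 5 genes of condensin and chromosome structure fell in Y577F cells, with a median of -0.46. Top2a, the topoisomerase that untangles sister chromatids, read -0.69 and -0.74 on the Y577F arrays and -0.11, 0.31 and -0.17 on the FI-Delta arrays. It changed by -0.67 ± 0.09 (1.59-fold lower, adjusted p = 0.00033). Smc2, the ATPase shared by the condensin complexes, read -0.82 and -0.58 against -0.07, 0.19 and 0.07, and changed by -0.66 ± 0.09 (1.58-fold lower, adjusted p = 0.00047). Its 2 probes gave -0.59 and -0.73 and both passed. For Top2a and Smc2 the arrays of the lines lay apart. The condensin I subunits Ncapg and Ncapd2 changed by -0.46 ± 0.08 and -0.39 ± 0.08. Mki67, the Ki-67 protein that coats mitotic chromosomes and serves as a marker of proliferation, changed by -0.44 ± 0.11 in Y577F cells (adjusted p = 0.020). In FI-Delta cells Mki67 was at 0.34 ± 0.12 (adjusted p = 0.12), the highest of the 40 there.

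Of 6 cytokinesis genes, 4 fell in Y577F cells, with a median of -0.40. Prc1, which bundles the microtubules of the midzone, read -0.67 and -0.71 on the Y577F arrays and -0.09, 0.62 and -0.10 on the FI-Delta arrays, without overlap. It changed by -0.65 ± 0.09 (1.57-fold lower, adjusted p = 5e-04). Kif20a, a midzone kinesin, changed by -0.52 ± 0.13, and Ect2, the exchange factor that activates RhoA at the cleavage plane, by -0.46 ± 0.08. Anln, the anillin scaffold of the ring, changed by -0.34 ± 0.08 (adjusted p = 0.013), but its 2 probes gave -0.19 (adjusted p = 0.26) and -0.49 (adjusted p = 0.0060). Kif23 and Racgap1, which together form centralspindlin, did not pass. Kif23 read -0.47 and -0.17 (fitted -0.27 ± 0.10, adjusted p = 0.10), and Racgap1 read -0.30 and -0.16 (fitted -0.29 ± 0.11, adjusted p = 0.11). Both were below 0 on both arrays.

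**Figure D2:**
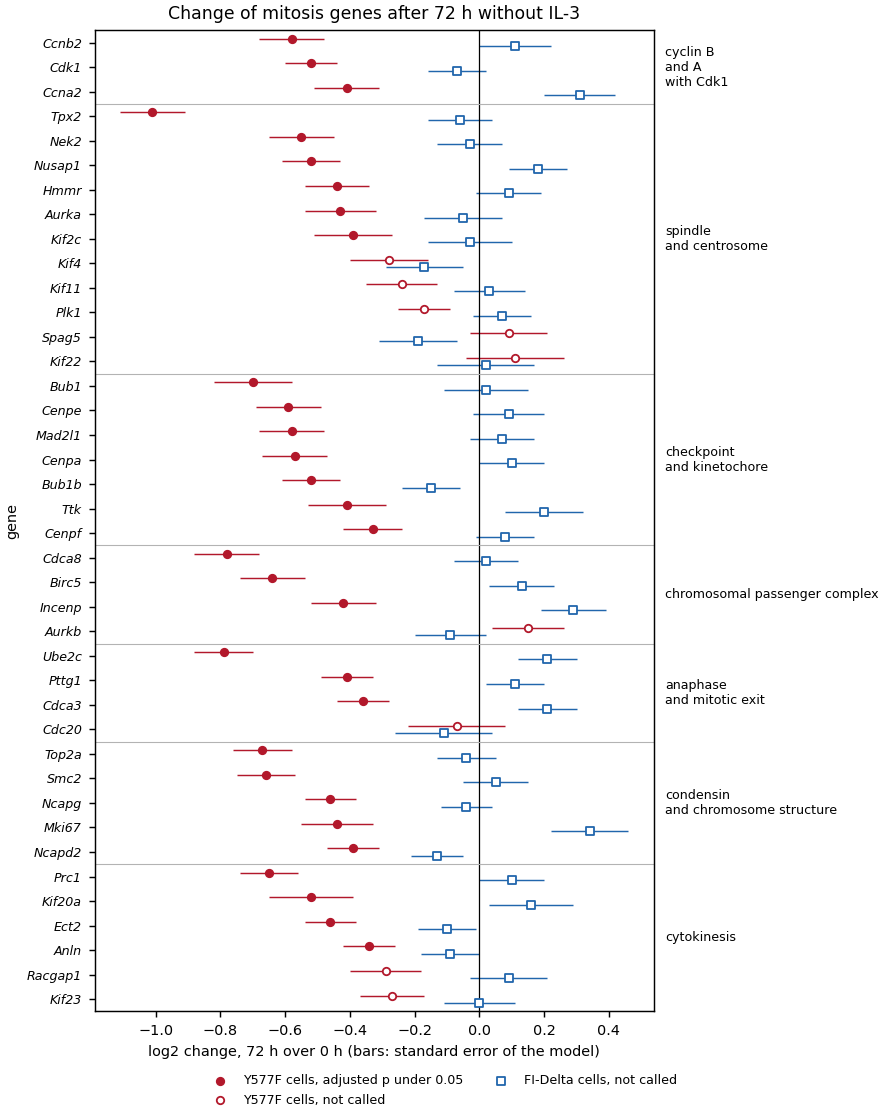
Log2 change from 0 h to 72 h of each mitosis gene (rows, by role) in Y577F cells (red circles, filled where the adjusted p was under 0.05) and in FI-Delta cells (blue squares, none called), with the model's standard error as bars. Red points lie to the left of 0 for 37 of 40 genes, down to -1.01 for Tpx2, and blue points lie between -0.19 and 0.34.

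In FI-Delta cells 0 of 40 genes were called in either direction, where 5.19% of all features rose and 2.97% fell. The median was 0.04 beside -0.01 for all features. At an unadjusted p under 0.05 there were 5 genes, Ccna2, Incenp, Ube2c, Cdca3 and Mki67, all above 0. Over all features 3999 of 20243 had such a p in either direction, so the 5 of 40 are no excess by that count. The share of features above 0 with such a p was not counted. The highest values were those of Mki67, Ccna2 and Incenp. Mki67 read -0.07, 0.45 and 0.25 on its arrays, Incenp read 0.32, -0.02 and 0.35, and Ccna2 was above 0 on all 3 as given above. The lowest values were those of Spag5 (0.02, -0.26 and -0.19 on its arrays, fitted -0.19 ± 0.12), Kif4 and Bub1b (-0.08, -0.07 and -0.01, fitted -0.15 ± 0.09). On the direct arrays 28 of 40 genes had mixed signs, 9 were above 0 on all 3 and 3 were below. Over all features 18.2% were above 0 on all 3 and 17.2% below. Arrays 1 and 2 carried the same RNA with the dyes exchanged (r = -0.25 over the 40 genes), so the 3 arrays stand for 2 cultures. Mixed signs here are therefore no measure of a lack of change. The 95% intervals of the 40 genes had limits as low as -0.46 and as high as 0.60. For single genes of this line such limits are as large as many of the declines called in Y577F cells. With limma's array weights Ube2c passed at 0.29 (adjusted p = 0.009).

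At 0 h, before the factor was removed, 0 of 40 genes were called between the lines, where 0.484% of all features were lower in Y577F cells and 0.934% higher. The median was -0.07 beside -0.01 for all features, and 30 of 40 were below 0, against 10569 of 20243 features. At an unadjusted p under 0.05 there were 5, Ccna2, Cdk1, Kif2c, Top2a and Prc1, all lower in Y577F cells. Over all features 2453 of 20243 had such a p in either direction, a share close to that of the 5 of 40. The share of features lower with such a p was not counted, so the common direction of the 5 is only described. Kif2c had the lowest value, with -0.53, -0.44 and 0.05 on its arrays and a fitted value of -0.35 ± 0.11 (adjusted p = 0.20). Prc1 read -0.06, -0.40 and -0.56 (fitted -0.28 ± 0.08, adjusted p = 0.18), and Ccna2 read -0.33, -0.05 and -0.10 (fitted -0.25 ± 0.09, adjusted p = 0.29). The latter pair kept a common sign on the 3 arrays, and Kif2c did not. The highest values were close to 0, with Aurka at 0.07 ± 0.10, Nek2 at 0.06 ± 0.09 and Cdc20 at 0.06 ± 0.13. Their arrays spread on both sides of 0: Aurka read -0.23, 0.00 and 0.36, Nek2 -0.05, 0.02 and 0.31, and Cdc20 0.54, -0.15 and -0.51. The 95% intervals of the 40 genes ran from -0.59 to 0.35.

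**Figure D3:**
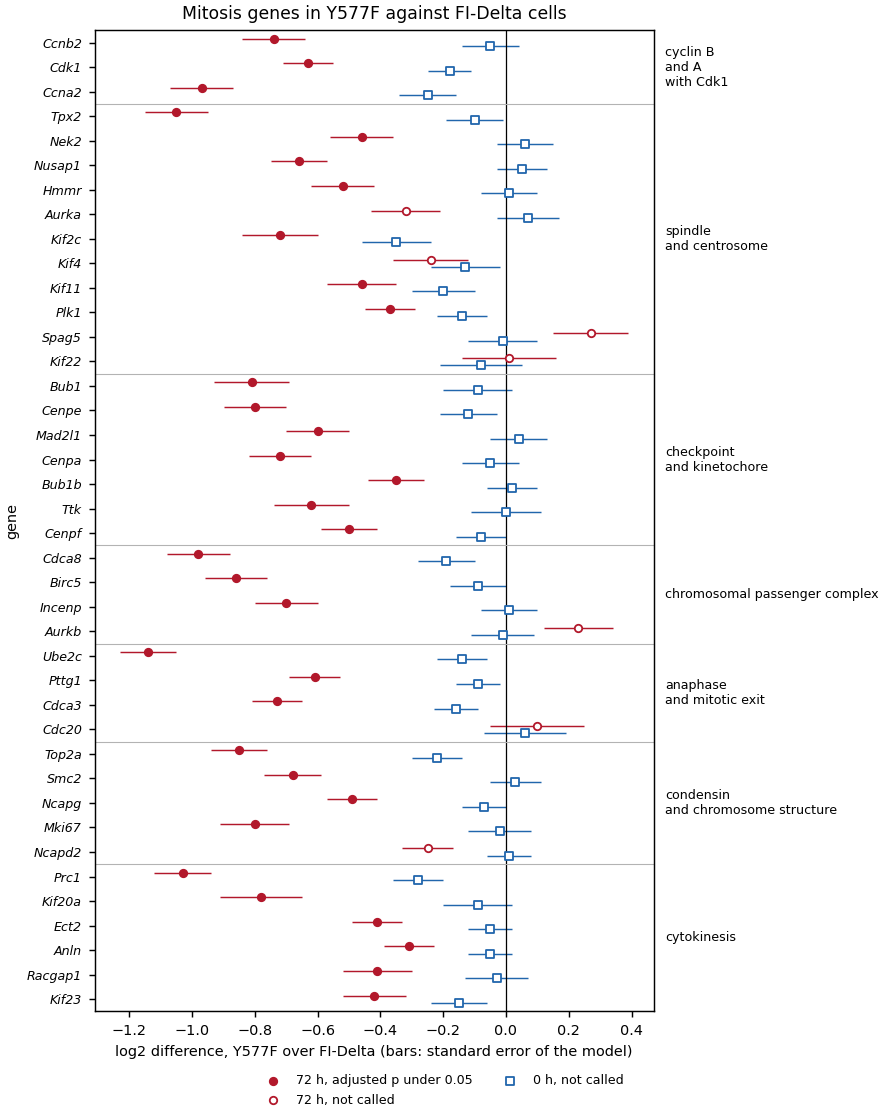
Log2 difference of each mitosis gene (rows, by role), Y577F over FI-Delta, at 72 h (red circles, filled where the adjusted p was under 0.05) and at 0 h (blue squares, none called), with the model's standard error as bars. At 72 h the points reach -1.14 for Ube2c, and at 0 h they lie between -0.35 and 0.07.

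At 72 h mitosis genes were lower in Y577F than in FI-Delta cells. Of 40, 33 were lower, 0 were higher and 7 did not pass, where 6.45% of all features were lower and 6.44% higher. The median was -0.61, a 1.53-fold difference, beside 0.01 for all features. Ube2c, Tpx2 and Prc1 were at least 2-fold lower. Ube2c read -1.25 and -0.92 on the direct arrays, with a fitted difference of -1.14 ± 0.09 (2.20-fold, adjusted p = 7.1e-06). Tpx2 read -0.89 and -1.24 (fitted -1.05 ± 0.10, 2.06-fold), and Prc1 read -0.95 and -1.03 (fitted -1.03 ± 0.09, 2.04-fold). All 3 were lower on both arrays. Borealin (Cdca8) followed at -0.98 ± 0.10 and Ccna2 at -0.97 ± 0.10. By role, the calls were 3 of 3 cyclin and Cdk1 genes, 7 of 11 spindle genes and 7 of 7 checkpoint genes. Passenger genes had 3 of 4, exit genes 3 of 4, condensin and chromosome genes 4 of 5 and cytokinesis genes 6 of 6. The calls kept least often over 18 alternative ways of processing were those of Racgap1 (in 9), Anln (in 10) and Bub1b (in 12). The 2 Anln probes were at -0.24 (adjusted p = 0.16) and -0.37 (adjusted p = 0.04).

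Kif11, Kif23, Racgap1 and Plk1, which did not pass over time in Y577F cells, were lower than in FI-Delta cells at 72 h. Their differences were -0.46 ± 0.11, -0.42 ± 0.10, -0.41 ± 0.11 and -0.37 ± 0.08 (adjusted p from 0.012 to 0.035). For Plk1 this again came from the first probe, at -0.81 (adjusted p = 0.00017), while the second was at 0.06 (adjusted p = 0.76). Aurka (-0.32 ± 0.11, adjusted p = 0.097) and Ncapd2 (-0.25 ± 0.08, adjusted p = 0.061) did not pass here. The highest values belonged to Spag5, Aurkb and Cdc20, none of them called. Spag5 read 0.06 and 0.51 (fitted 0.27 ± 0.12, adjusted p = 0.17), Aurkb read -0.05 and 0.66 (fitted 0.23 ± 0.11, adjusted p = 0.22), and Cdc20 read 0.16 and 0.21 (fitted 0.10 ± 0.15, adjusted p = 0.74). Array 2 carried most of the values of Spag5 and Aurkb. From the direct arrays alone and with no dye term, 20 of 40 were lower, with 1018 features called over the whole table in place of 2609. Kif4, Kif22, Spag5, Aurkb and Cdc20 passed in none of the 5 comparisons, the difference between the changes included.

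The change over 72 h differed between the lines for 27 of the 40 genes, by the test of the difference itself (Y577F minus FI-Delta). All 27 were more negative in Y577F cells, where 4.91% of all features were more negative and 4.33% more positive. The median difference was -0.53 (1.44-fold) beside 0.01. Ube2c differed by -1.0 ± 0.10 (2.00-fold, adjusted p = 0.00015), Tpx2 by -0.95 ± 0.11 (adjusted p = 0.00032) and Cdca8 by -0.80 ± 0.11 (adjusted p = 0.0013). The time arrays of each line are given above. They entered the fit by which these 3 genes were picked, so their lack of overlap is no separate support. The most positive were Spag5 (0.29 ± 0.14, adjusted p = 0.23), Aurkb (0.24 ± 0.12, adjusted p = 0.27) and Kif22 (0.09 ± 0.17, adjusted p = 0.79). Checkpoint genes passed in 7 of 7 cases with a median of -0.65, and cyclin and Cdk1 genes in 3 of 3 with -0.69. Passenger genes passed in 3 of 4 (-0.74), exit genes in 3 of 4 (-0.55) and condensin and chromosome genes in 4 of 5 (-0.62). Spindle genes passed in 4 of 11 (-0.37) and cytokinesis genes in 3 of 6 (-0.37). The calls kept least often over 18 alternative ways of processing were those of Bub1b (in 5), Ect2 (in 7) and Cenpf (in 10). The groups were not tested against each other. From the time arrays alone, without the arrays between lines and with no dye term, 1 of 40 passed, Ube2c, with 210 features called over the whole table in place of 1871, while the median was -0.56.

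**Figure D4:**
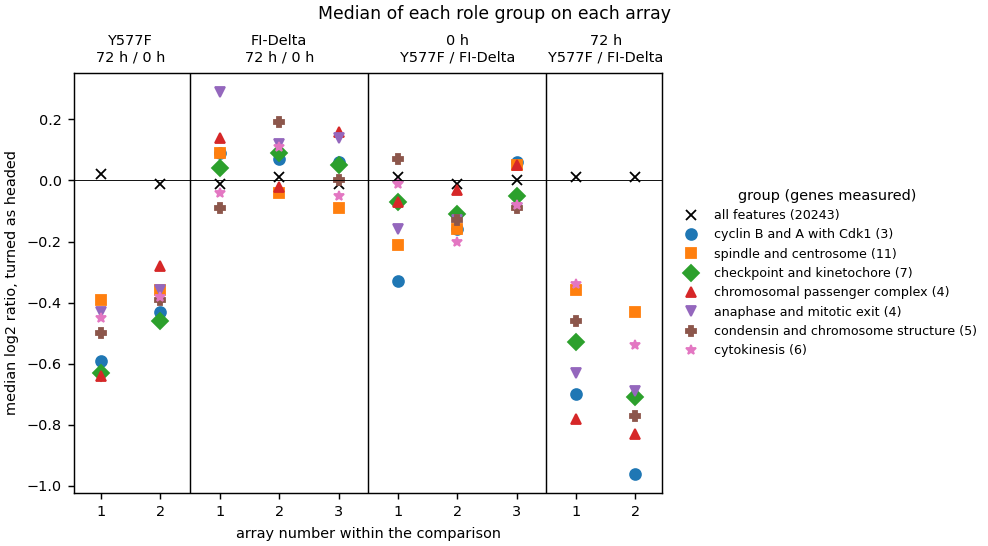
Median log2 ratio of each role group (coloured symbols) and of all 20243 features (crosses) on each of the 10 arrays, headed by the RNAs compared. On the Y577F time arrays and the 72 h arrays every role group lies between -0.96 and -0.28, with spindle (orange squares) and cytokinesis genes (pink stars) among the nearest to 0 at 72 h, and on the other arrays the groups lie between -0.33 and 0.29.

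The members are part of a larger machinery, and 139 other genes of it were measured, in 6 lists. Of these, 56 fell and 8 rose in Y577F cells, with a median of -0.25, and 2 fell and 5 rose in FI-Delta cells, with a median of -0.01. Over all features 8.75% fell and 9.28% rose in Y577F cells, and 2.97% fell and 5.19% rose in FI-Delta cells. Between the lines at 0 h 0 of the 139 were called by limma (18 at an unadjusted p under 0.05, against 2453 of 20243 features). At 72 h 52 were lower in Y577F cells and 4 higher, where 6.45% of all features were lower and 6.44% higher. The kinetochore list had 15 of 32 lower and 1 higher in Y577F cells. Ndc80, which grips microtubules at the kinetochore, changed by -0.96 ± 0.11. Cenph of the inner kinetochore changed by -0.94 ± 0.11 and Zwilch, which helps load dynein there, by -0.92 ± 0.10. Against them, Cenpb, which binds a centromere repeat, rose by 0.66 ± 0.12.

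The list of cyclins, kinases and regulators had 12 of 21 lower and 1 higher. Pbk, a mitotic kinase, changed by -1.07 ± 0.16. Mybl2, a transcription factor of late cell cycle genes, changed by -0.99 ± 0.09 and Cks2, a Cdk1 subunit, by -0.78 ± 0.09. Ensa, an inhibitor of the phosphatase that opposes Cdk1, rose by 0.32 ± 0.09. Cdkn3, a Cdk phosphatase, was called in opposite directions: it rose by 0.63 in FI-Delta cells (adjusted p = 0.0034) and changed by -0.33 in Y577F cells (adjusted p = 0.046). It was named after its values were seen. Among condensin and cohesin genes 12 of 19 fell and 0 rose. Cdca5, the sororin that protects cohesion, changed by -0.60 ± 0.09 and Hmgb2, a chromatin protein, by -0.59 ± 0.10. Cdca7, also a chromatin factor, changed by -0.59 in both lines (adjusted p = 0.00054 and 0.0015).

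Among other spindle genes and kinesins 13 of 37 fell, led by Nedd1, which recruits gamma-tubulin (-0.93 ± 0.15), Stmn1, which destabilises microtubules (-0.68 ± 0.09), and Kif20b (-0.66 ± 0.10). In that list 2 rose, the augmin subunit Haus8 by 0.53 ± 0.09 and Clasp2, a microtubule plus-end protein, by 0.43 ± 0.09. Among subunits and regulators of the anaphase-promoting complex 2 of 15 fell, Anapc5 (-0.47 ± 0.11) and Anapc1 (-0.44 ± 0.09), and Anapc10 rose by 0.56 ± 0.15. Among other cytokinesis genes 2 of 15 fell, Depdc1a (-0.48 ± 0.09) and Diaph3, a formin (-0.39 ± 0.09). In that list 3 rose: Rhoa, the GTPase of the contractile ring (0.73 ± 0.13), Chmp4b, a membrane-cutting ESCRT subunit (0.48 ± 0.09), and Svil, an actin-binding protein (0.36 ± 0.10). Rhoa and Chmp4b also act outside division, and Diaph3 and Svil were named after their values were seen. Over all features 8.75% fell and 9.28% rose in Y577F cells, so the few calls in the 2 lists of 15 genes are not read as a result about those lists. Shares of the lists were not tested against each other.

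Other gene groups were counted in the same samples, where 9.28% of all features rose and 8.75% fell in Y577F cells, and 5.19% rose and 2.97% fell in FI-Delta cells. Of 54 DNA replication genes, 32 fell and 0 rose in Y577F cells (median -0.33), and 5 fell and 0 rose in FI-Delta cells (median -0.10). Of 21 growth arrest genes, 5 rose and 1 fell in Y577F cells and 7 rose and 0 fell in FI-Delta cells. Their changes differed between the lines for 5 of 21, 3 more positive and 2 more negative in Y577F cells, with a median difference of -0.07. Monocyte and macrophage markers rose in both lines, 18 of 22 in Y577F cells (median 1.17, range -0.11 to 3.14) and 14 of 22 in FI-Delta cells (median 0.58, range -0.09 to 1.5). Neutrophil granule genes were 3 of 16 higher and 6 lower in Y577F cells (median -0.16), and 13 of 16 higher in FI-Delta cells (median 1.01). They also differed between the lines at 0 h, where 13 of 16 were lower in Y577F cells, and at 72 h, where 14 were lower and 2 higher. Mast cell and basophil markers were 4 of 11 lower in each line and 1 higher in Y577F cells. Erythroid and megakaryocyte markers were 3 of 9 lower and 2 higher in Y577F cells, and 2 of 9 lower in FI-Delta cells. Lymphoid markers had 1 of 13 higher in each line, near the shares over all features. The part of these values in the mitosis result was not tested.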

How the data were processed

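The deposited table holds log2 ratios of 2 channels for 10 spotted arrays, normalised by the authors with limma per the submitters' processing notes, which give no version or settings. Base 2 and Cy5 over Cy3 are likely because limma writes ratios so. Their background correction and scaling are not stated there. Spot intensities were not analysed, and precision rests on the number of arrays. The table has 23040 spots, from which 1243 controls were removed. Probes sharing a single symbol were averaged, which gave 20243 features. The dye swap of the same FI-Delta RNA was averaged, leaving 9 hybridisations. The model (limma 3.58.1, R 4.3.3) took 3 coefficients to describe 4 RNA groups, plus a dye effect per feature. It had 5 residual and 6.34 prior degrees of freedom. The 5 comparisons were two-sided, with Benjamini-Hochberg adjustment over all features.

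Members, lists and tests were chosen with earlier results of these data known. Array values are given for the 12 largest called changes in Y577F cells over time, for every gene not called there, and for the 3 highest and 3 lowest values in each other comparison. Other pathway genes named are the 3 largest called changes of each list and, where most of a list's calls ran one way, those called in the opposite direction. Promoters were chosen as the 6 largest called declines and the 4 values closest to 0, of which 8 had a window in the RefSeq table. Alternatives were the dye term, the dye swap, direct arrays alone and a replicate block (each with no dye term), array weights, scaling, centring, single probes and leaving out each array.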

Additional observations from a re-analysis of the deposited data

Results flagged for a closer look

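For 27 mitosis genes the change over 72 h differed between the lines in the test of the difference itself, and for all of them the change was more negative in Y577F cells. The values below are differences of log2 changes, Y577F minus FI-Delta, from the fit over all arrays. Among cyclin and Cdk1 genes they were -0.72 for Ccna2, -0.69 for Ccnb2 and -0.44 for Cdk1. Among spindle genes they were -0.95 for Tpx2, -0.70 for Nusap1, -0.53 for Hmmr and -0.52 for Nek2. The checkpoint and kinetochore genes gave -0.72 for Bub1, -0.68 for Cenpa and for Cenpe, -0.65 for Mad2l1, -0.61 for Ttk, -0.42 for Cenpf and -0.37 for Bub1b. In the passenger complex Cdca8 was at -0.80, Birc5 at -0.77 and Incenp at -0.71. Of the exit genes, Ube2c was at -1.0, Cdca3 at -0.57 and Pttg1 at -0.53. Chromosome genes gave -0.78 for Mki67, -0.71 for Smc2, -0.62 for Top2a and -0.43 for Ncapg. Among cytokinesis genes Prc1 was at -0.75, Kif20a at -0.68 and Ect2 at -0.36. From the time arrays alone and with no dye term, Ube2c was the 1 gene that passed. It was also the 1 gene called in all 18 alternatives. Least often kept were Bub1b (in 5 of the 18), Ect2 (in 7) and Cenpf (in 10).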

How the results depend on the processing

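Of 3600 values for single genes under 18 alternatives, 0 changed sign after a call, 180 calls were lost and 11 were gained. The median of the 40 genes stayed between -0.51 and -0.41 for Y577F cells over time and between -0.62 and -0.57 for the lines at 72 h. It lay between -0.59 and -0.49 for the difference between changes, between 0.02 and 0.08 for FI-Delta cells and between -0.10 and -0.04 at 0 h. Medians of role groups moved beyond their spread between arrays in 43 of 630 cases. With the RNA extracts entered as a replicate block and no dye term, 18 genes fell in Y577F cells and 10 differed in their change. In the same fit 22 were lower at 72 h. Where Cy5 marked Y577F against FI-Delta, the titles give the lines each other's culture numbers, and the block assigns 1 and 2 to FI-Delta cultures and 3 and 4 to Y577F cultures throughout, against those titles. In the block fit, the difference between the 2 cultures of a line was taken at 0 h and at 72 h. Over all features these differences correlated with r = 0.71 in FI-Delta and 0.69 in Y577F cells. With 2 pairs per line, and estimates that share arrays, this does not show that the numbers pair the cultures. From direct arrays alone with no dye term 22 fell in Y577F cells, 20 were lower at 72 h and 1 differed in its change. Array weights gave 1 gene higher in FI-Delta cells, Ube2c. Leaving out each array in turn gave 16 to 31 genes lower in Y577F cells (16 without Y577F time array 1), 26 to 34 lower and 0 to 1 higher at 72 h (Spag5, at 0.36 without Y577F time array 2), and 20 to 27 that differed in their change. In every alternative 13 of the 31 declines in Y577F cells, 20 of the 33 differences at 72 h and 1 of the 27 differences between changes were called. Over the whole table, calls ranged from 1721 to 4247 for Y577F cells (3649 in the model as reported), 544 to 3786 for FI-Delta cells (1652), 22 to 445 at 0 h (287), 1018 to 5537 at 72 h (2609) and 210 to 2475 for the difference (1871). The causes were not tested. Spot intensities were not analysed, so dim probes could not be set apart.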
